A study of Homo sapiens with 12 samples.

Results

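The RNAs described here are 10 long noncoding RNAs: NEAT1, MALAT1, PVT1, CASC19, MIR31HG, MIR22HG, MIR100HG, SNHG1, GAS5 and H19. They were chosen by name, though with earlier results of these data known. All 10 were found among the 62703 genes of the table and passed the filter on low counts. They were measured by RNA sequencing in H69 cells, a human cholangiocyte line (epithelium of the bile ducts) that was immortalised with viral large T antigen, a protein known to bind p53. After 6 h without serum, cells were kept overnight, still without serum, in 1 of 4 ways: vehicle alone, TGFβ (10 ng/mL), Aramchol (30 µM) or TGFβ and Aramchol together. TGFβ is a cytokine known for inducing extracellular matrix, and Aramchol is a bile acid joined to a fatty acid that lowers the activity of the desaturase SCD. The labels state the Aramchol dose a single time, and it is assumed here for both groups with the drug. Each group had 3 libraries, numbered 1 to 3, and since nothing in the labels makes them separate cultures, the p-values speak only for library-to-library spread, possibly technical.

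Long noncoding RNAs are transcripts that are not translated into a known protein. Some act as RNA: NEAT1 is the scaffold of paraspeckles, nuclear bodies that hold proteins and edited RNAs, and MALAT1 lies in the neighbouring nuclear speckles, where splicing factors gather. Others are known mainly as hosts, whose primary transcript is cut to release a microRNA (MIR31HG, MIR22HG, MIR100HG, H19) or whose introns give rise to small nucleolar RNAs, the guides of ribosomal RNA modification (SNHG1, GAS5). PVT1 and CASC19 are both transcribed near the gene of the transcription factor MYC.

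Levels below are CPM, the usual unit of counts scaled to library size, after TMM normalisation, and group values are the mean ± SD of 3 libraries. Changes between groups are log2 fold changes from edgeR's quasi-likelihood test with their standard error (SE), and a gene is called changed at a Benjamini-Hochberg adjusted p under 0.05 over all 21567 genes tested. Coordinates are those of the table, on GRCh38.

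The microRNAs that the host genes carry are shown here because a change of a host is often read as a change of its microRNA, which these libraries did not measure. The sequences are 1 arm of each of 6 hairpins inside MIR31HG, MIR22HG, MIR100HG and H19, 5′ to 3′, from RefSeq (GRCh38.p14). The seed (bases 2 to 8, the part that pairs with targets) is in capitals.
hsa-miR-31-5p: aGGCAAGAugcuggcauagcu
hsa-miR-22-3p: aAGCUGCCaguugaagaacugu
hsa-miR-100-5p: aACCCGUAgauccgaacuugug
hsa-let-7a-5p: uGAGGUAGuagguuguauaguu
hsa-miR-125b-5p: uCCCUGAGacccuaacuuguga
hsa-miR-675-5p: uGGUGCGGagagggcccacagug
No seed was shared by any pair of the 11 arms matched, which are these and the other arm of each hairpin except MIR31. The MIR22 hairpin (chromosome 17, 1713903 to 1713987) and the MIR675 hairpin (chromosome 11, 1996759 to 1996831) lay wholly in exons of MIR22HG and H19, so reads there fall in 2 genes at once, and both were listed at 0 counts in every library. MIR31, MIR100, MIRLET7A2 and MIR125B1 lay in no exon of their hosts, and the highest count of any of them in a library was 11, for MIR125B1. PVT1 also had 5 microRNA genes listed inside it, with at most 4 counts in a library, and NEAT1 had 1, at 0 counts. Their arms are not shown and their seeds were not compared. The 7 small nucleolar RNA genes listed inside SNHG1 were all covered by its exons and all at 0 counts. The host transcripts are therefore reported here as transcripts, and nothing was measured of their small RNAs.

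The level per kilobase of exon allows the RNAs to be set side by side. Over the 12 libraries NEAT1 was at 23.4 CPM per kb, GAS5 at 20.03 and SNHG1 at 17.3, which placed them at ranks 6, 7 and 8 among 1829 tested genes that RefSeq classes as lncRNA. MIR22HG followed at 10.2 CPM per kb (rank 15). H19 (2.53), PVT1 (1.76), MIR31HG (0.880), CASC19 (0.708) and MIR100HG (0.376 CPM per kb) lay well below. The order at the top depended on the group. In vehicle NEAT1 stood at 30.7 ± 1.297, above GAS5 at 20.6 ± 1.501 and SNHG1 at 17.4 ± 1.38 CPM per kb. In TGFβ with Aramchol NEAT1 was at 18.2 ± 1.77, GAS5 at 19.9 ± 0.741 and SNHG1 at 17.6 ± 0.991 CPM per kb, so that NEAT1 overlapped with both of the others. Per kilobase of unshared exon GAS5 (21.6 ± 0.803) and SNHG1 (20.8 ± 1.17 CPM per kb) overlapped there too.

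**Figure D1:**
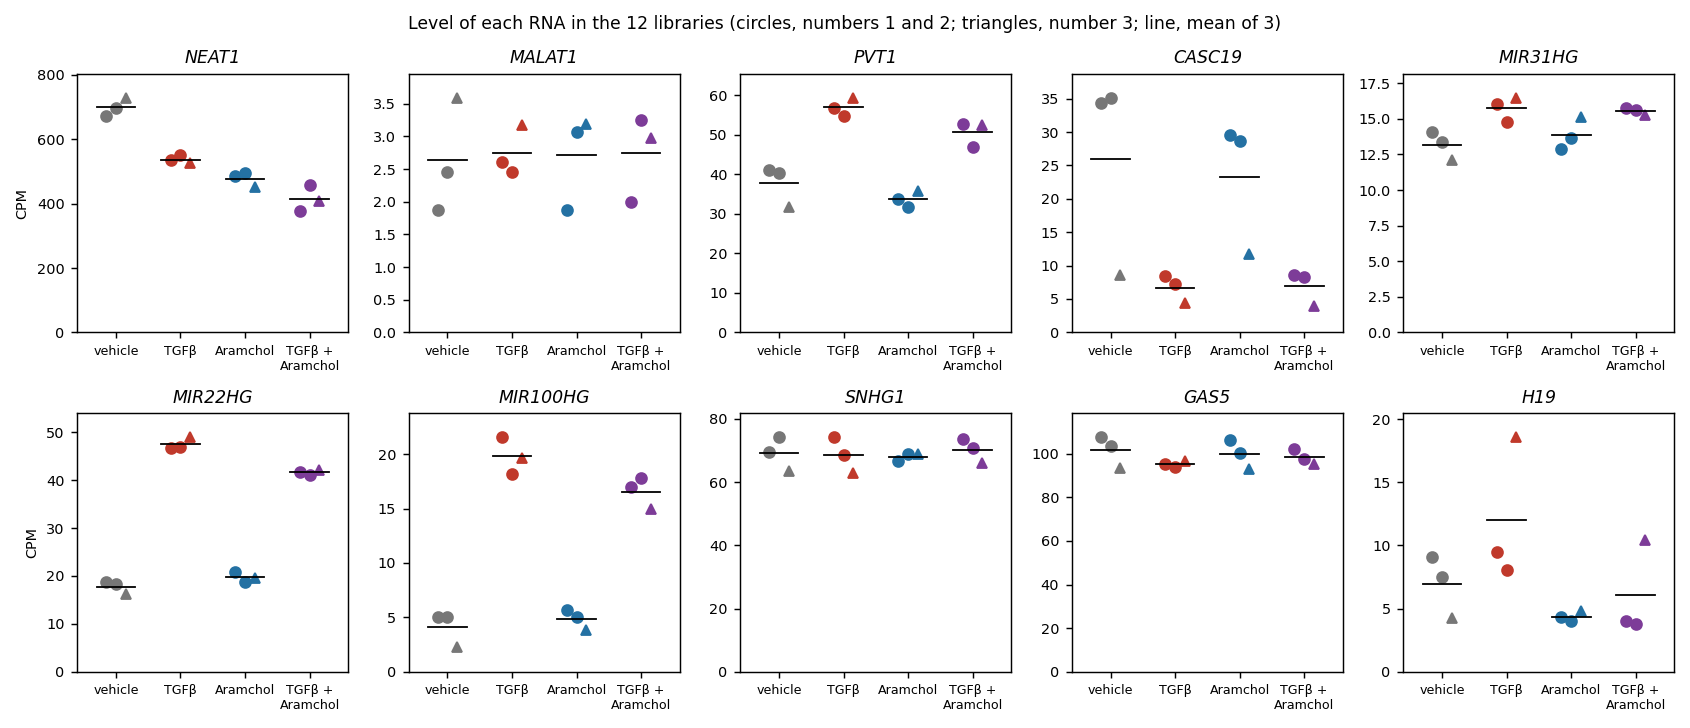
CPM (y axis, from 0) of each RNA in the 12 libraries by treatment, with circles for libraries numbered 1 and 2, triangles for number 3 and a line at the mean of 3. MIR22HG, MIR100HG and PVT1 sit higher in both groups with TGFβ, CASC19 sits lower, NEAT1 is highest in vehicle, and the triangles stand apart for CASC19 and H19.

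The count of MALAT1 was low, and few of its exon bases are its own. It was at 1.88, 2.45 and 3.596 CPM in vehicle, and between 1.88 and 3.25 CPM in the other 9 libraries, or 103 to 250 counts. Per kilobase of all its exon bases it was at 0.307 CPM (rank 948), and per kilobase of unshared exon at 2.67 CPM, beside 2.73 CPM for H19 on that scale, although MALAT1 is known as an RNA of very high abundance in most human cells. Of its 8829 exon bases (ENSG00000251562, chromosome 11, 65497688 to 65506516, plus strand), only 1014, or 11.5%, belonged to no other gene of the table. The antisense gene TALAM1 covered 81.6% of them and had 9 counts in all 12 libraries together. A read in bases that 2 genes share may go to neither, depending on counting settings not named in the sources used here, and the part of this in the low count was not tested. The other 9 RNAs had 84.6% (SNHG1) to 99.3% (CASC19) of their exon bases to themselves. MALAT1 was called in none of the 4 treatment comparisons by edgeR, nor by DESeq2. With TGFβ its log2 fold change was 0.05 (SE 0.25, adjusted p = 0.90), an SE larger than many of the changes reported below.

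**Figure D2:**
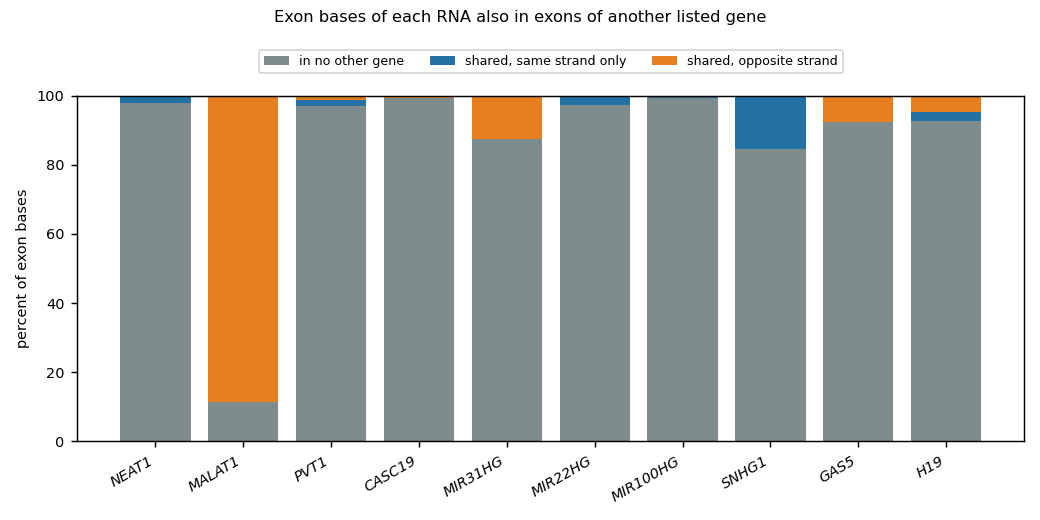
Percent of each RNA's exon bases (y axis) that lie in no other gene of the table (grey), or in exons of another gene on the same (blue) or the opposite strand (orange). MALAT1 has 11.5% to itself, the others at least 84.6%.

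TGFβ alone changed 6 of the 10 RNAs. MIR100HG, MIR22HG, PVT1 and MIR31HG rose, and CASC19 and NEAT1 fell. Of all genes tested 37.0% were called, 18.9% higher and 18.1% lower, and a count of this size is not particular to these RNAs. Among the 1829 tested lncRNAs, 12.2% rose and 17.8% fell. For the same 6 RNAs the 3 TGFβ and the 3 vehicle libraries did not overlap, as was true of 46.6% of all genes. All 15 targets of TGFβ signalling listed as a control rose. TGFβ with Aramchol against Aramchol alone, which uses the other 6 libraries, changed 5 of the 10, the same RNAs in the same directions without MIR31HG. The background there was 30.2%, with 16.0% higher and 14.2% lower. The groups of 5 of the 10 did not overlap, with MIR31HG in the place of NEAT1, against 44.6% of all genes. The self-test simulated this design for TGFβ against vehicle and called 34, 48, 72 and 98% of genes changed 1.3-, 1.5-, 2- and 4-fold, so small changes could be missed. It changed 50 genes per fold size among 21057, a far smaller share than the 37.0% called in the data. Its adjusted threshold was therefore stricter, and these shares do not carry over directly.

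MIR100HG showed the largest rise of the 10. It is the long host of miR-100, let-7a-2 and miR-125b-1 (ENSG00000255248, chromosome 11, 122028325 to 122556721, minus strand). Its libraries were at 4.99, 5.02 and 2.32 CPM in vehicle and at 21.6, 18.2 and 19.7 CPM in TGFβ. With Aramchol they were at 5.64, 5.06 and 3.85 CPM, and with both agents at 17.0, 17.8 and 14.9 CPM. Every library with TGFβ lay above every library without. The rise was 2.27 (SE 0.21, adjusted p = 4.07e-07), or 4.84-fold, without Aramchol and 1.77 (SE 0.21, adjusted p = 6.87e-06), or 3.42-fold, in its presence. The vehicle library numbered 3 held less than its 2 companions, and from libraries 1 and 2 alone the rise was 1.99. The groups with TGFβ and with both agents did not overlap, yet the difference of -0.26 (SE 0.19) was not called (adjusted p = 0.55).

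MIR22HG, the host of miR-22, gave the most even values of the RNAs that rose (ENSG00000186594, chromosome 17, 1711447 to 1717174, minus strand). Its vehicle libraries were at 18.7, 18.3 and 16.2 CPM and its TGFβ libraries at 46.8, 47.0 and 49.0 CPM. With Aramchol the values were 20.9, 18.7 and 19.5 CPM, and with both agents 41.7, 41.1 and 42.1 CPM. No library of one TGFβ state reached the range of the other. The rise was 1.43 (SE 0.07, adjusted p = 1.42e-10), 2.69-fold, and with Aramchol present 1.08 (SE 0.07, adjusted p = 3.98e-09), 2.12-fold. Every library with both agents lay below every TGFβ library, a difference of -0.19 (SE 0.06) that was not called (adjusted p = 0.13). It was called without the vehicle library numbered 3 (adjusted p = 0.0443), a library of neither group, in a fit that tested 22263 genes and called 1209 of them against 486. The cause was not tested. The interaction, the difference between these 2 rises, was -0.34 (SE 0.09, adjusted p = 0.76), not called either.

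A promoter window of MIR22HG is shown because this RNA moved evenly in every library with TGFβ. The window runs from 250 bases before to 50 after a RefSeq start (chr17:1716161-1716460, GRCh38.p14, minus strand), with GGGCGG and CCAAT, on either strand, in capitals. It lies wholly inside the annotated span of MIR22HG, which on the minus strand begins at 1717174. Bases at that outermost start were not examined.
MIR22HG: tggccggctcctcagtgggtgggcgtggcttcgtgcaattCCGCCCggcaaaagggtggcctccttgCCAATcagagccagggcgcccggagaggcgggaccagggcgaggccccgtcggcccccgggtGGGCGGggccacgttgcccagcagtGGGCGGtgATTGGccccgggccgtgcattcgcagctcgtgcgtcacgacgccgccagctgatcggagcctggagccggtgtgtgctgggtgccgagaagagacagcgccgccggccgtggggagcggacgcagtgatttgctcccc
It held 3 matches to GGGCGG, the GC box, which is found in 45.0% of the 35116 RefSeq promoter windows, and 2 to CCAAT, found in 34.6%. CAGACA, which contains the core of SMAD binding sites, and TGANTCA, the AP-1 site, had no match there on either strand and are found in 16.9% and 7.71% of windows. TATAAA (11.5% of windows) had none either. The 5 matches share no base, and a missing match says only that the letters are absent from these 300 bases. Of 13 windows matched to 7 of the RNAs, CAGACA was found in 2, both of MIR100HG, and TGANTCA in none.

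PVT1, a lncRNA often amplified together with MYC in tumours, rose by the same amount in both comparisons (ENSG00000249859, chromosome 8, 127794526 to 128187101, plus strand). It was at 41.1, 40.4 and 31.7 CPM in vehicle and 56.7, 54.6 and 59.4 CPM in TGFβ. It was at 33.7, 31.6 and 35.7 CPM with Aramchol and 52.7, 46.9 and 52.4 CPM with both agents. The lowest library with TGFβ, at 46.9 CPM, was above the highest without. The rise was 0.59 (SE 0.09, adjusted p = 5.21e-05) without and 0.59 (SE 0.09, adjusted p = 7.83e-05) with Aramchol, near 1.51-fold in each. Against vehicle Aramchol gave -0.16 (SE 0.09, adjusted p = 0.50), with overlapping groups. In libraries 1 and 2 alone that difference was -0.32 (SE 0.07, adjusted p = 0.00268), and without the vehicle library numbered 3 it was -0.27 (adjusted p = 0.0401), so the call turns on that library. MYC, 51.6 kb from PVT1, was not called with TGFβ (0.42, adjusted p = 0.0989).

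CASC19 showed the largest fall (ENSG00000254166, chromosome 8, 127072694 to 127227541, minus strand). It is a lncRNA of the gene-poor region upstream of MYC that carries many cancer risk loci. It was at 34.3, 35.2 and 8.57 CPM in vehicle and 8.44, 7.20 and 4.32 CPM in TGFβ. With Aramchol it was at 29.6, 28.6 and 11.7 CPM, and with both agents at 8.57, 8.35 and 3.93 CPM. The library numbered 3 was the lowest of its group in all 4 groups, and in vehicle, at 8.57 CPM, it lay just above the highest TGFβ library at 8.44 CPM. The change was -1.96 (SE 0.46, adjusted p = 0.00332), 3.89-fold, and -1.75 (SE 0.46, adjusted p = 0.00853), 3.36-fold, in the presence of Aramchol. In libraries 1 and 2 alone the values were -2.15 (SE 0.08) and -1.78 (SE 0.08), so the fall was as large without number 3, and its SE was smaller. In those 8 libraries Aramchol against vehicle was also called for CASC19, at -0.25 (adjusted p = 0.0328), against -0.16 (adjusted p = 0.92) in all 12.

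MIR31HG, the host of miR-31 (ENSG00000171889, chromosome 9, 21380073 to 21559891, minus strand), rose least. It was at 14.1, 13.4 and 12.1 CPM in vehicle and 16.03, 14.7 and 16.5 CPM in TGFβ. The lowest TGFβ library was thus just above the highest vehicle library. The change was 0.26 (SE 0.08, adjusted p = 0.0228), 1.19-fold. It was not called without vehicle library 3, TGFβ library 1 or TGFβ library 3 (adjusted p = 0.0838, 0.0665 and 0.0874), nor in libraries 1 and 2 alone (0.16, adjusted p = 0.13). With Aramchol present the values went from 12.9, 13.7 and 15.1 to 15.8, 15.6 and 15.2 CPM, a difference of 0.16 (SE 0.08, adjusted p = 0.16) that was not called, though the groups did not overlap.

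NEAT1 was the only RNA of the 10 that changed in all 4 treatment comparisons, always downward (ENSG00000245532, chromosome 11, 65422774 to 65445540, plus strand). It was at 671, 696 and 729.9 CPM in vehicle, at 536, 550.1 and 525 CPM with TGFβ, at 485, 494 and 452 CPM with Aramchol and at 379, 458 and 408 CPM with both. Vehicle stood above every other library, and TGFβ above both groups with Aramchol. The Aramchol group and the group with both agents overlapped. TGFβ changed NEAT1 by -0.38 (SE 0.07, adjusted p = 0.000235), 1.302-fold.

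**Figure D3:**
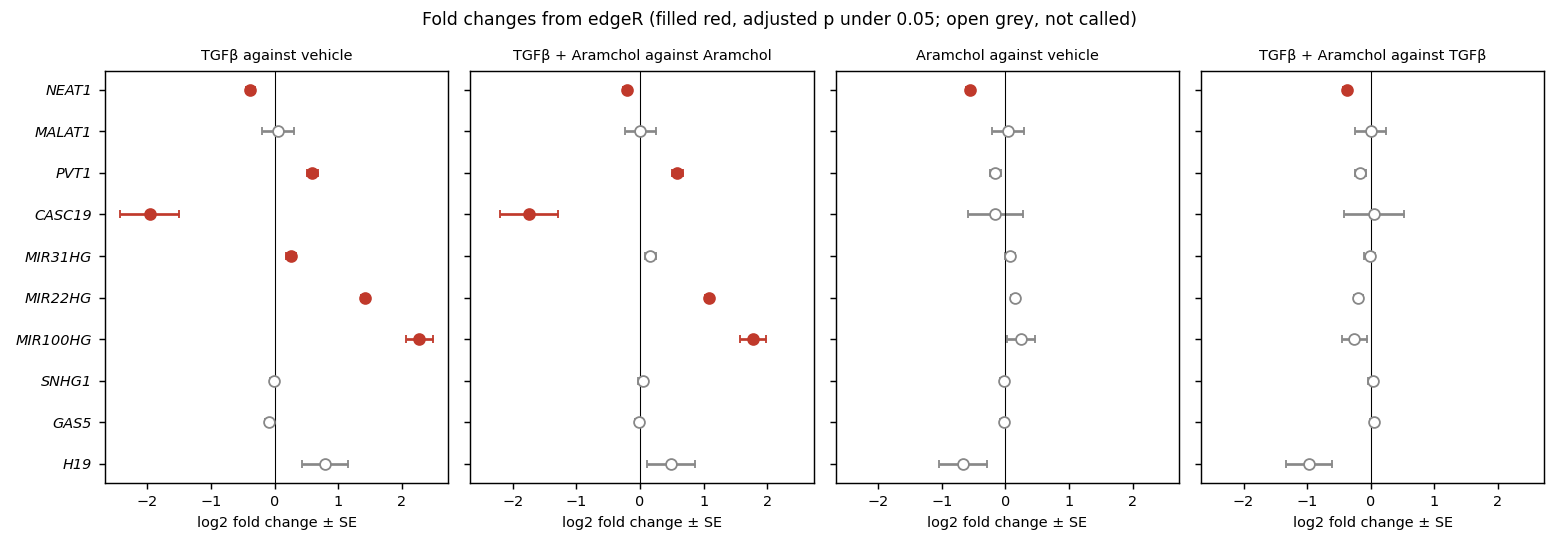
Log2 fold change (x axis) with its SE for each RNA in the 4 treatment comparisons, in filled red where the adjusted p from edgeR is under 0.05 and in open grey where it is not. The panels with TGFβ against its own control have 6 and 5 filled points, the panels with Aramchol against its control have NEAT1 alone.

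Aramchol against vehicle changed 1 of the 10 RNAs, NEAT1, where 0.357% of all genes tested were called (77 genes, 0.236% higher and 0.121% lower). The split was 51 higher and 26 lower, and 37 and 38 with upper quartile scaling. NEAT1 differed by -0.55 (SE 0.07, adjusted p = 0.00223), 1.46-fold, from 699 ± 29.5 to 477 ± 22.1 CPM, and this was called in every alternative run. Within the libraries numbered 1, 2 and 3 the log2 difference was -0.47, -0.49 and -0.69. In the presence of TGFβ the drug again changed 1 of the 10 (background 2.25%, with 0.890% higher and 1.36% lower). NEAT1 differed by -0.37 (SE 0.07, adjusted p = 0.0112), 1.29-fold, and the call was lost without TGFβ library 2 (adjusted p = 0.0567) or without library 1 of both agents (adjusted p = 0.0644). Adding TGFβ to Aramchol gave -0.20 (SE 0.07, adjusted p = 0.0275), which was lost on leaving out any of 4 libraries (adjusted p 0.0822 to 0.14). TGFβ and Aramchol against vehicle share the vehicle libraries, so their shared direction is not independent. The interaction of the agents on NEAT1 was 0.18 (SE 0.09, adjusted p = 0.95). Across the 10 RNAs edgeR called no interaction, DESeq2 called none, and 1 (MIR22HG) had an unadjusted p under 0.05, with 0.0139% of all genes called (3 genes).

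The groups of 4 of the 10 RNAs did not overlap between TGFβ with Aramchol and TGFβ alone, where 23.6% of all genes did not. All 4 (NEAT1, PVT1, MIR22HG and MIR100HG) were lower with the drug, and all but NEAT1 missed the threshold. Between Aramchol and vehicle 2 of the 10 did not overlap (background 16.0%), NEAT1 lower and MIR22HG higher, the latter at 0.15 (SE 0.07, adjusted p = 0.39).

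The counts of listed genes that follow stand against 18.9% of all genes higher and 18.1% lower with TGFβ. Of 20 genes for paraspeckle proteins, which bind NEAT1, 2 rose and 1 fell with TGFβ, with a median log2 fold change of 0.04 against -0.03 for all genes. AHDC1 rose by 0.48 and TARDBP, an RNA-binding protein, by 0.14, while ZC3H6 fell by 0.51. With Aramchol against vehicle 1 of the 20 fell, RBM12 (-0.24, adjusted p = 0.0484), where 0.121% of all genes were lower. In the presence of TGFβ RBM12 was also lower with the drug (-0.23, adjusted p = 0.0226). FRMD8, whose end lies 9.25 kb before NEAT1, rose by 0.45 with TGFβ while NEAT1 fell, and LTBP3, on the far side of MALAT1, rose by 0.40. NEAT1 is also a known target of p53, to which the large T antigen used on these cells is known to bind. Of 20 listed p53 targets 15 rose and 1 fell with TGFβ (all genes 18.9% higher and 18.1% lower). CDKN1A (2.06), an inhibitor of the cell cycle, and MDM2 (1.03), which degrades p53, were among those that rose. The part of p53 in these changes or in that of NEAT1 was not tested.

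SNHG1 and GAS5, the hosts of small nucleolar RNAs, were called in no treatment comparison by edgeR or DESeq2. SNHG1 (ENSG00000255717, chromosome 11, 62851978 to 62855953, minus strand) was at 69.6, 74.3 and 63.4 CPM in vehicle, 74.2, 68.4 and 63.0 CPM in TGFβ, 66.8, 68.8 and 68.8 CPM in Aramchol and 73.7, 70.7 and 65.9 CPM with both. GAS5 (ENSG00000234741, chromosome 1, 173858559 to 173868882, minus strand) was at 107.7, 103.7 and 93.4 CPM in vehicle, 95.2, 94.0 and 96.8 CPM in TGFβ, 106.1, 100.5 and 92.9 CPM in Aramchol and 102.3, 97.5 and 95.2 CPM with both. The groups overlapped in all 4 comparisons for each gene. The log2 fold changes lay between -0.02 and 0.04 for SNHG1 and between -0.09 and 0.05 for GAS5, with SEs of 0.06 to 0.07. In libraries 1 and 2 alone GAS5 was called lower with TGFβ, at -0.16 (adjusted p = 0.0217).

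The 5′ ends of these hosts are shown because GAS5 and other small nucleolar RNA hosts are known to start with a run of pyrimidines, which ties their turnover to translation. They are the first 30 bases at the start shared by the largest number of transcripts of the gene in GENCODE 29, with the leading pyrimidines in capitals.
GAS5: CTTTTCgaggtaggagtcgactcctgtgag
SNHG1: CTTattgggctcctgtctgcaggatttacg
The GAS5 start (chromosome 1, 173867989) was shared by 6 of its 29 transcripts and opens with C and 6 pyrimidines in all. The SNHG1 start (chromosome 11, 62855488), shared by 9 of 25, opens with 3 pyrimidines. On the minus strand it lies inside the annotated span of SNHG1, which begins at 62855953, and downstream of SNORD25 (62855564 to 62855632). It is thus not the outermost 5′ end, and starts further upstream were not examined for a tract. The GAS5 start also lies inside the annotated span, which begins at 173868882. Of 206694 GENCODE transcripts 2.41% start with C and at least 5 pyrimidines in a row. Of 27 tested translation genes known for such a tract, 5 rose and 2 fell with TGFβ (all genes 18.9% higher and 18.1% lower), among them EEF1B2 (0.37), an elongation factor, and NPM1 (0.28), a nucleolar protein. Of 14 factors of nonsense-mediated decay, the pathway known to degrade spliced GAS5, 4 rose and 2 fell, and EIF4A3 of the exon junction complex rose by 0.66.

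SNHG1 shares its upstream region with SLC3A2, the heavy chain of amino acid transporters, which is read in the opposite direction and starts 50 bases away. SLC3A2 was at 72.6 ± 10.7 CPM in vehicle, 118.9 ± 5.40 in TGFβ, 109.1 ± 12.02 in Aramchol and 160.4 ± 6.40 CPM with both. It rose with TGFβ by 0.71 (SE 0.09, adjusted p = 2.07e-05), with Aramchol by 0.59 (SE 0.09, adjusted p = 0.0159) and with Aramchol in the presence of TGFβ by 0.43 (SE 0.09, adjusted p = 0.0285), while SNHG1 was called in none of these. Whether the changes of the pair differ was not tested. The sequence between them and the start of SNHG1 is given here from RefSeq (chr11:62855836-62856003, GRCh38.p14, minus strand, 168 bases), with the bases between the outermost annotated ends of SLC3A2 and SNHG1 in capitals.
SNHG1: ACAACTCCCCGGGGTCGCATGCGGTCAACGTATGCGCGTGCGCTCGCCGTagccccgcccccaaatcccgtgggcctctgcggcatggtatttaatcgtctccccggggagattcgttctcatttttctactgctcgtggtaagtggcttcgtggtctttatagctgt
GAS5 and MIR22HG also have a gene on the opposite strand that overlaps their annotated span at the 5′ side. ZBTB37, which overlaps GAS5, fell by 0.44 with TGFβ (adjusted p = 0.00222) and by 0.50 with TGFβ in the presence of Aramchol (adjusted p = 0.00104), where GAS5 was not called. WDR81, which overlaps MIR22HG, rose by 0.28 (SE 0.07, adjusted p = 0.00584), against 1.43 for MIR22HG. Without a stated strand setting, reads from such pairs cannot be told apart where exons overlap.

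H19, an imprinted RNA that is high in the fetus and hosts miR-675 (ENSG00000130600, chromosome 11, 1995166 to 2001470, minus strand), was called in no treatment comparison, and its libraries numbered 3 did not follow the others. It was at 9.09, 7.53 and 4.29 CPM in vehicle and 9.50, 8.03 and 18.6 CPM in TGFβ. It was at 4.33, 3.98 and 4.80 CPM in Aramchol and 4.05, 3.81 and 10.4 CPM with both. Library 3 was the lowest in vehicle and the highest in the other 3 groups. With TGFβ the difference was 0.79 (SE 0.36, adjusted p = 0.11), with Aramchol -0.67 (SE 0.38, adjusted p = 0.51) and with Aramchol in the presence of TGFβ -0.97 (SE 0.37, adjusted p = 0.19). Without library 3 of both agents the last was -1.61 (adjusted p = 0.0219) and the TGFβ difference 0.79 (adjusted p = 0.0364), both called. In libraries 1 and 2 alone TGFβ gave 0.08 (adjusted p = 0.67), while Aramchol gave -1.004 (SE 0.12, adjusted p = 3.47e-06) and, in the presence of TGFβ, -1.15 (SE 0.13, adjusted p = 3.19e-07), both called. Within number 3 alone the 2 differences with the drug were 0.16 and -0.83. In all 12 libraries with a term for number 3, H19 was called lower with Aramchol in the presence of TGFβ (-0.99, SE 0.29, adjusted p = 0.0451) and not without TGFβ (-0.74, adjusted p = 0.24). With no filter on low counts edgeR called H19 in all 4 treatment comparisons (adjusted p 3.68e-13 to 0.000973). Yet the groups overlapped in all 4, and with the filter the SEs were 0.36 to 0.38. Why the calls depend on the filter was not tested, and those small p-values do not reflect the spread of number 3 seen above. IGF2, the growth factor gene imprinted with H19 and 127.6 kb away, was called in no treatment comparison (adjusted p 0.0523 to 0.21).

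The 4 libraries numbered 3 differed from the others in 2 of the 10 RNAs (background 12.6%, with 5.29% higher and 7.34% lower), in a fit with a term for each group and 1 for number 3. The log2 difference was -1.37 (SE 0.12, adjusted p = 1.78e-06) for CASC19 and -0.36 (SE 0.11, adjusted p = 0.0338) for MIR100HG. The MIR100HG call was lost without vehicle library 3 (-0.20, adjusted p = 0.0921) and without 4 other libraries in turn. CASC19 was the only RNA of the 10 for which number 3 was lowest in every group, which held for 8.55% of all genes, and none of the 10 had number 3 highest in every group, as 6.35% of all genes did. MALAT1 (0.40, SE 0.14, adjusted p = 0.0702) and SNHG1 (-0.12, adjusted p = 0.0653) were not called by edgeR, while DESeq2 called MALAT1 (adjusted p = 0.0372). H19 gave 0.54 (SE 0.22, adjusted p = 0.13), and 0.95 (SE 0.12, adjusted p = 3.44e-06) without vehicle library 3. What number 3 stands for is not given in the labels. Of 18 tested neighbours and linked genes of the RNAs, 8 were lower in number 3, among them IGF2 (-0.44) and MYC (-0.47).

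**Figure D4:**
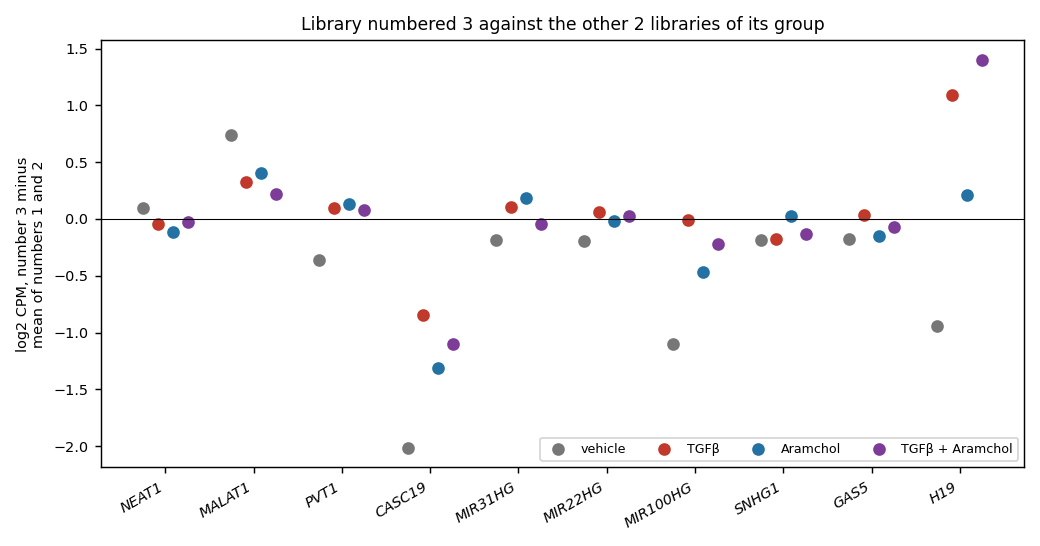
Log2 CPM of library 3 minus the mean of libraries 1 and 2 of the same group (y axis) for each RNA, coloured by treatment. CASC19 lies below 0 in all 4 groups, and H19 is below 0 in vehicle and above it in the groups with TGFβ.

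The RNAs that host small RNAs can be viewed within wider lists of hosts, which are not independent of them. The microRNA host list holds MIR22HG, MIR31HG and MIR100HG themselves, and its median with TGFβ is the value of MIR31HG. The list of small nucleolar RNA hosts holds SNHG1 and GAS5. Of 31 tested microRNA hosts 14 rose and 6 fell with TGFβ, with a median of 0.26 (all genes -0.03), where 18.9% of all genes were higher and 18.1% lower. With TGFβ in the presence of Aramchol, 11 rose and 6 fell, where 16.0% of all genes were higher and 14.2% lower. Beside MIR100HG and MIR22HG, MIR23AHG rose by 1.77 (from 15.2 ± 0.923 to 51.9 ± 5.45 CPM) and MIR193BHG by 1.91 (from 2.96 ± 0.524 to 11.1 ± 0.334 CPM). MIR99AHG and MIR503HG fell, by 0.99 and 0.87. Of 30 small nucleolar RNA hosts 2 rose and 4 fell, with a median of -0.09, among them SNHG7 (-0.51) and EIF4A2 (-0.24), a translation factor, lower and SNHG14 (0.33) higher. Of 12 listed genes for proteins linked to small nucleolar RNAs or to ribosome formation, 6 rose and 1 fell. Among them DKC1 (0.31), the pseudouridine synthase, was higher and NOP53 (-0.28) lower.

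**Figure D5:**
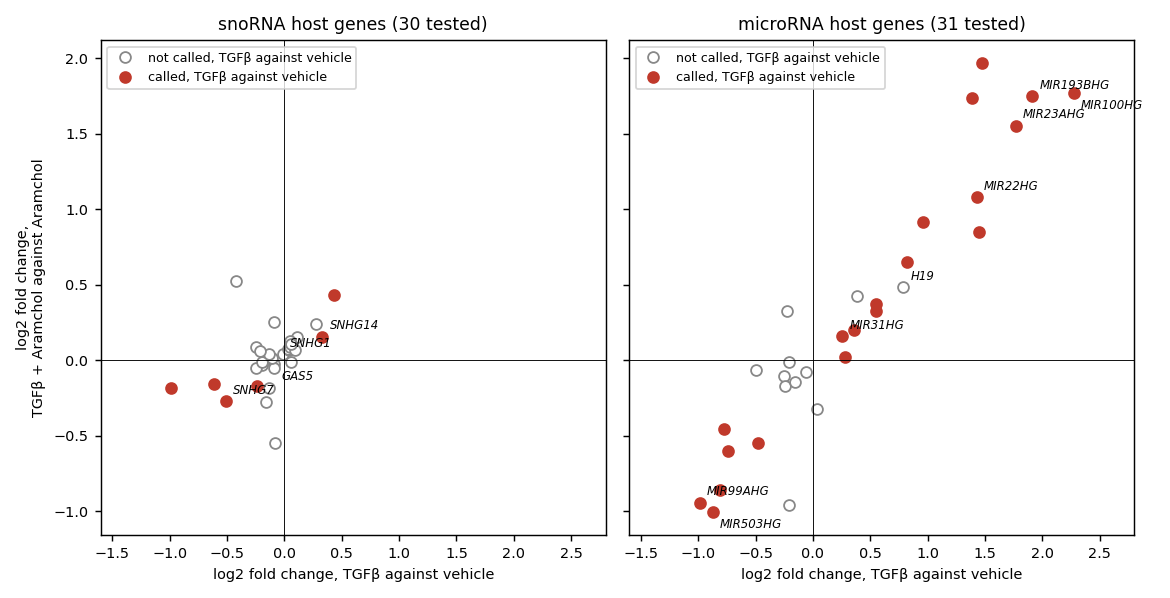
Log2 fold change with TGFβ against vehicle (x axis) and with TGFβ + Aramchol against Aramchol (y axis), which share no library, for 30 small nucleolar RNA hosts (left) and 31 microRNA hosts (right), filled where called in the first. The microRNA hosts spread from MIR99AHG to MIR100HG, while SNHG1 and GAS5 lie near the origin.

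Of 29 tested other well-known lncRNAs 8 rose and 5 fell with TGFβ, where 12.2% of all tested lncRNAs rose and 17.8% fell. UCA1 rose by 1.82 (from 1.58 ± 0.0747 to 5.58 ± 0.294 CPM) and CYTOR by 0.86, while LINC00261 fell by 1.81 (from 14.6 ± 2.75 to 4.15 ± 0.608 CPM). Near the RNAs themselves, UBASH3B, a phosphatase gene 99.0 kb from MIR100HG, rose by 1.52 (SE 0.09, adjusted p = 2.34e-09). CDKN2B and CDKN2A, inhibitors of cyclin-dependent kinases 443.0 and 407.9 kb from MIR31HG, rose by 2.11 and 0.82, against 0.26 for MIR31HG. Of the 18 tested neighbours and linked genes 9 rose and 1 fell with TGFβ, against 18.9% of all genes higher and 18.1% lower.

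The gene patterns most like each RNA, by Pearson r of log2 CPM over the 12 libraries among 11285 (for MALAT1 11286) genes of at least 5 CPM, were as follows. These r values rest on 4 groups and describe the same libraries. MIR22HG was closest to CSF1R, VEGFC and TNC (r = 0.997 for each), and MIR100HG to MRTFA, DLC1 and DUSP7 (0.994 to 0.996). CASC19 was closest to RPS6KA2 (0.994), PVT1 to TMSB4X (0.990), H19 to TNNT1 (0.974) and NEAT1 to the unnamed gene ENSG00000291178 (0.970) and then to ATF6B (0.951). GAS5 (VPS18, 0.932), MIR31HG (ZNF584, 0.936), MALAT1 (PHF20L1, 0.921) and SNHG1 (SINHCAF, 0.871) had looser partners.

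Depth was even across libraries. Totals ran from 52279922 to 70339925 counts, so 3 counts equalled 0.0427 to 0.0574 CPM, and mitochondrial genes held 7.81 to 9.45% of counts. Of 14 cholangiocyte markers 11 were tested, and 4 rose and 3 fell with TGFβ, where 18.9% of all genes were higher and 18.1% lower. Among them CD24 (1.18) was higher and EPCAM (-1.20) lower. Their summed level was 1565 to 2487 CPM in vehicle, 2952 to 3170 with TGFβ, 1902 to 2271 with Aramchol and 2671 to 2929 with both, while CFTR was too low to test and SPP1 was at 0 in vehicle and Aramchol. Of 10 fibroblast markers 9 were tested and 6 rose and 1 fell with TGFβ, against the same shares of all genes. Their summed level was 1109 to 1338 CPM in vehicle, 4697 to 6252 with TGFβ, 1177 to 1403 with Aramchol and 3397 to 4764 with both, none of the 10 was at 0 in any group, and the part of this in the changes above was not tested. Hepatocyte, endothelial and leukocyte markers summed to at most 88.5, 20.7 and 35.2 CPM in any library, with TTR and CD3E at 0 in every group. Of 6 leukocyte markers 2 were tested, and these moved in opposite directions with TGFβ. CSF1R rose from 0.644 ± 0.0990 to 21.0 ± 1.40 CPM, and CD14 fell from 31.3 ± 3.19 to 5.47 ± 0.421 CPM. In bulk RNA fewer cells of a type and less RNA per cell cannot be told apart.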

How the data were processed

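RNA of H69 cells was sequenced in 12 libraries, 3 for each of 4 treatments. Per the labels' protocols, RNA was taken up in Trizol and libraries were made with IDT's 2S Plus kit. The submitters' processing notes name STAR 2.7.9a, GRCh38, featureCounts of Subread and DESeq2. The authors deposited raw counts per gene and library, and these counts are the only unit used. Neither strandedness of counting nor the annotation used is given in the sources used here.

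Genes were filtered with filterByExpr (21567 of 62703 kept; 20616 had no counts), normalised by TMM (0.930 to 1.09) and tested with edgeR 4.0.16 in R 4.3.3, quasi-likelihood, 1 mean per group over 12 libraries, with Benjamini-Hochberg adjustment at 0.05 over all genes tested. The biological coefficient of variation was 8.90%. Log2 CPM used a prior count of 2. Alternatives were a stricter low-count filter (10 counts in 3 libraries and mean CPM 1) or none, scaling by RLE or by the upper quartile, DESeq2 1.42.0, the replicate number as a block, a term for number 3, libraries 1 and 2 alone, only the 2 groups compared, and each library left out in turn. A term for the TGFβ effect within number 3 was chosen after seeing the data.

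The 10 RNAs, the 20 gene lists and the alternatives were chosen with earlier results of these data known, so none of them is independent evidence. Named were the 10 RNAs in every comparison, from each list the 3 genes of smallest p called with TGFβ and up to 2 in other comparisons, all neighbours, microRNA genes and controls, and the 3 closest patterns of each RNA. MIR99AHG, MIR503HG, CFTR and SPP1 fall outside this rule and were named after their values were seen. Some genes are not reported here. No pair of libraries in a group was a duplicate (chi-square per gene 4.16 to 38.0). The procedure was tested on simulated data, in which 4 unchanged genes of 21057 simulated were called. Sequences are from RefSeq and GENCODE tables of GRCh38. Python 3.11.15, pandas 2.3.3, numpy 2.4.6 and matplotlib 3.10.9 were used.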

Additional observations from a re-analysis of the deposited data

Results flagged for a closer look

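The response of H19 to TGFβ differed between the libraries numbered 3 and those numbered 1 and 2. In a fit with a term for number 3 and its product with TGFβ treatment, chosen after seeing the data, the difference between the 2 TGFβ effects was 1.61 on the log2 scale (SE 0.23, adjusted p = 0.00137 by edgeR), and 0.946% of all genes were called in that term. Between libraries of the same number, 1, 2 and 3, which the labels do not tie together, TGFβ against vehicle gave 0.06, 0.09 and 2.11 for H19, and TGFβ with Aramchol against Aramchol gave -0.10, -0.06 and 1.11. None of the other 9 RNAs was called in that term. CASC19 (0.67, adjusted p = 0.0681) and MIR100HG (0.65, adjusted p = 0.0590) came closest.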

How the results depend on the processing

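No result changed direction past its threshold under the alternatives run. The number of the 10 RNAs called with TGFβ was 6, and 5 to 7 over all alternatives, and with TGFβ in the presence of Aramchol 5, and 4 to 6. With Aramchol against vehicle it was 1, and became 2 with no filter and 4 in libraries 1 and 2 alone, and 1 to 2 on leaving out each library (2 without vehicle library 3). With both agents against TGFβ it was 1, and became 2 with no filter, 2 with a term for number 3 and 2 in libraries 1 and 2 alone, and 0 to 2 on leaving out each library. For number 3 against 1 and 2 it was 2, and became 4 with no filter and 1 to 3 on leaving out each library. The cause of these moves was not tested.

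The replicate number as a block gave 6, 1, 1 and 5 RNAs called in the 4 treatment comparisons and 0 in the interaction, as without it. With each gene's group mean subtracted from its log2 CPM, same-numbered libraries of the groups compared correlated at 0.0073 to 0.222. Only those numbered 3 exceeded 0.1 (0.111 to 0.222), while differently numbered libraries lay between -0.147 and 0.0892. These values describe what is left within groups, not the likeness of whole libraries. Libraries numbered 3 thus shared a pattern across groups. The low values for numbers 1 and 2 cannot tell whether those numbers pair the samples. Over all genes the block raised the calls from 77 to 464 for Aramchol against vehicle and from 486 to 1519 for both agents against TGFβ. For these comparisons DESeq2 called 399 and 1042 genes, no filter 531 and 1278, a term for number 3 538 and 1683, libraries 1 and 2 alone 1544 and 1853, and only the groups compared 5 and 960. The interaction went from 3 genes to 151 with no filter, 26 with DESeq2, 23 with the block, 31 with the term and 191 in libraries 1 and 2 alone. With 3 libraries a group, changes under 1.5-fold were often missed in the simulation, which changed a smaller share of genes than TGFβ did here. Only 11.5% of the MALAT1 exon bases are unshared.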

Other observations

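Other noncoding RNAs also differed in the libraries numbered 3, where 12.6% of all genes (5.29% higher, 7.34% lower) and 6.67% of tested lncRNAs were called. Of 30 tested small nucleolar RNA hosts 1 was higher and 6 were lower there than in numbers 1 and 2 by edgeR, among them SNHG14 (0.18) higher and SNHG15 (-0.33) lower. Of 29 tested well-known lncRNAs 2 were higher and 4 lower, with KCNQ1OT1, an imprinted antisense RNA, at 0.42 and LINC00707 at -1.63. Of 31 microRNA hosts 3 were higher and 1, MIR100HG, was lower, with MIR3142HG at 0.39 and MIR23AHG at 0.19. Both host lists include RNAs described above, such as SNHG1, GAS5, MIR22HG and MIR100HG. Of 11 tested cholangiocyte markers 5 were lower and none higher.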
